A study of Mus musculus with 8 samples.

Results

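The 6 miRs described here are the 5p and 3p arms of miR-208a, miR-208b and miR-499, the miRs that lie within introns of myosin heavy chain genes. They were taken by name, whatever their values, from a count table of 1755 mouse miRs. EVs, the membrane vesicles that cells release into their surroundings, were collected from muscle of male C57BL/6J mice. OXI-EV (4 libraries) came from oxidative muscle, the soleus together with the red portion of the gastrocnemius, and GLY-EV (4 libraries) came from glycolytic muscle, the whole quadriceps. The animals were bought at 10 to 12 weeks of age and gave tissue from 1 leg each without pooling, and the dissected muscle was kept for 24 h in serum-free medium, from which the EVs were then isolated. The vesicles therefore came from all cells of the tissue, and fewer vesicles of a cell type and less of a miR in each vesicle cannot be told apart.

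Myosin heavy chains are the motor proteins of the muscle sarcomere, and the isoform a fibre carries sets how fast it shortens. Myh6 encodes the alpha isoform of the heart, Myh7 the beta isoform shared by the heart and slow skeletal fibres, and Myh7b a slow-tonic isoform. In mice the miRs inside these genes are known as a family: miR-208a from cardiac muscle, where it takes part in the response to stress and thyroid hormone, and miR-208b and miR-499 from slow skeletal fibres, where they hold down repressors of slow fibre genes. A miR hairpin is cut into a 5p arm and a 3p arm, and the seed, bases 2 to 8 of the mature arm, is the stretch that pairs most strongly with target mRNAs.

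All 6 members matched a mature sequence of RefSeq (GRCm38.p6), shown here (mmu- marks the mouse) in lower case with the seed in capitals because the seed and its bases 2 to 7 group the members across hairpins.
mmu-miR-208a-3p: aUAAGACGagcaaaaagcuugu
mmu-miR-208b-3p: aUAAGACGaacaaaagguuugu
mmu-miR-499-5p: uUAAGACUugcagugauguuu
mmu-miR-208a-5p: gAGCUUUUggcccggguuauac
mmu-miR-208b-5p: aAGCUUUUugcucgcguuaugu
mmu-miR-499-3p: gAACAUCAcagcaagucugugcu
The 3p arms of miR-208a and miR-208b had the same seed and were identical at 19 of 22 positions, with the substitutions G10A, A16G and C18U (miR-208a base, position from the 5′ end, miR-208b base). Their 5p arms also shared a seed and were identical at 16 of 22 positions, with the substitutions G1A, G9U, C12U, G15C, A21G and C22U. The 5p arm of miR-499 shared bases 2 to 7, UAAGAC, with both 3p arms of miR-208, and none of the other 1673 mature mouse sequences in RefSeq had these 6 bases there. The seed of the miR-208 5p arms was also that of 1 further mature sequence, miR-6415, which had no row in the count table. Among these 1673 mature miRs none came closer than 7 edits to any member, and other sequences were not searched. How the counting placed shortened reads of the similar miR-208 arms is not given in the sources used here.

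The hairpins show where the arms sit, with the mature arms in capitals.
Mir208a: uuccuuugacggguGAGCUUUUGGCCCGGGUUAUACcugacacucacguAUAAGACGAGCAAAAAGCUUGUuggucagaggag
Mir208b: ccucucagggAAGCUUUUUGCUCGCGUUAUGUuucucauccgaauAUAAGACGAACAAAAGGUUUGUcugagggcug
Mir499: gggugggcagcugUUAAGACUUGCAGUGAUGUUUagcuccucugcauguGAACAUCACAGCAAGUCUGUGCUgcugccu
Mir208a (GRCm38, chr14:54949060-54949142, minus strand, 83 bases) lay in intron 29 of Myh6, a gene of 39 exons in GENCODE. Mir208b (chr14:54975700-54975776, minus strand, 77 bases) lay in intron 31 of Myh7, a gene of 41 exons. The 2 hairpins were 26557 bases apart, on the same strand as their host genes. Mir499 (chr2:155622880-155622958, plus strand, 79 bases) lay in intron 19 of Myh7b, a gene of 42 exons, again on the strand of its host. No annotated gene other than the host overlapped a hairpin.

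The libraries held 348730 to 572106 miR counts in OXI-EV against 587068 to 1004011 in GLY-EV, with 4151145 to 4867396 and 5179262 to 7197716 mapped reads. Counts appear to be molecules marked by unique identifiers, since each stood for 3.14 to 4.69 miR reads in OXI-EV libraries and for 2.63 to 4.94 in those of GLY-EV. Levels are given as CPM, counts per 1000000 mapped reads, so that 1 count was worth 0.205 to 0.241 CPM in OXI-EV against 0.139 to 0.193 CPM in GLY-EV. GLY-EV 4 stood apart, with 193852 miR CPM against 102836 to 116877 in the other GLY-EV libraries. Skeletal muscle miRs (miR-206-3p with miR-1a-3p and the 3p arms of miR-133a and miR-133b) were abundant in every library, at 51953 to 84334 summed CPM in OXI-EV against 64679 to 122050 in GLY-EV. Nothing in the sources states whether equal replicate numbers mark 1 mouse, and p-values measure the spread between these libraries.

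The myosin-encoded miRs were scarce in the EVs of both muscles. All 6 together had 914 counts over the 8 libraries, where miR-1a-3p, the most abundant miR of the table and which promotes muscle differentiation, had 2110559 and miR-206-3p, a skeletal muscle miR most abundant in slow muscle, had 954833. The members summed to 30.5 ± 8.80 CPM (SD, n = 4) in OXI-EV compared with 15.1 ± 8.64 CPM (SD, n = 4) in GLY-EV, which was 0.0327% and 0.0110% of the miR counts on average. miR-208b-3p, the most abundant member, had a mean count of 38.1 per library and the rank of 465 among the 1755 miRs. The others followed with mean counts of 21.6 for miR-208a-5p (rank 914), 16.4 for miR-208a-3p (rank 1182), 15.4 for miR-499-3p (rank 1233), 11.9 for miR-208b-5p (rank 1435) and 10.9 for miR-499-5p (rank 1484).

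These levels were those of the bulk of the table. Over all 1755 miRs the mean count had a median of 22.9 and quartiles of 14 and 40.6, and 1024 miRs (58.3%) had a mean count within the range spanned by the members. Markers of other tissues lay at these levels or above, except miR-144-5p of red blood cells. miR-122-5p, the abundant miR of hepatocytes, had a mean count of 18.9, with 5 to 32 counts in OXI-EV against 12 to 23 in GLY-EV. Of the 3 neuronal markers, miR-124-3p had a mean count of 11.75, with 0 to 72 counts in OXI-EV against 0 to 13 in GLY-EV. The other neuronal markers were above the members, miR-9-5p with a mean count of 99.1 (6 to 671 counts in OXI-EV, 14 to 32 in GLY-EV) and miR-128-3p with 310.5 (72 to 179 in OXI-EV, 171 to 927 in GLY-EV). Of the red blood cell markers, miR-451a had a mean count of 61, miR-144-3p of 17.6 and miR-144-5p of 9. The source of counts of this size was not tested. The mean of miR-206-3p was 3726 times that of miR-208b-3p in OXI-EV against 1852 times in GLY-EV, and that of miR-1a-3p was 1899 and 18192 times.

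**Figure D1:**
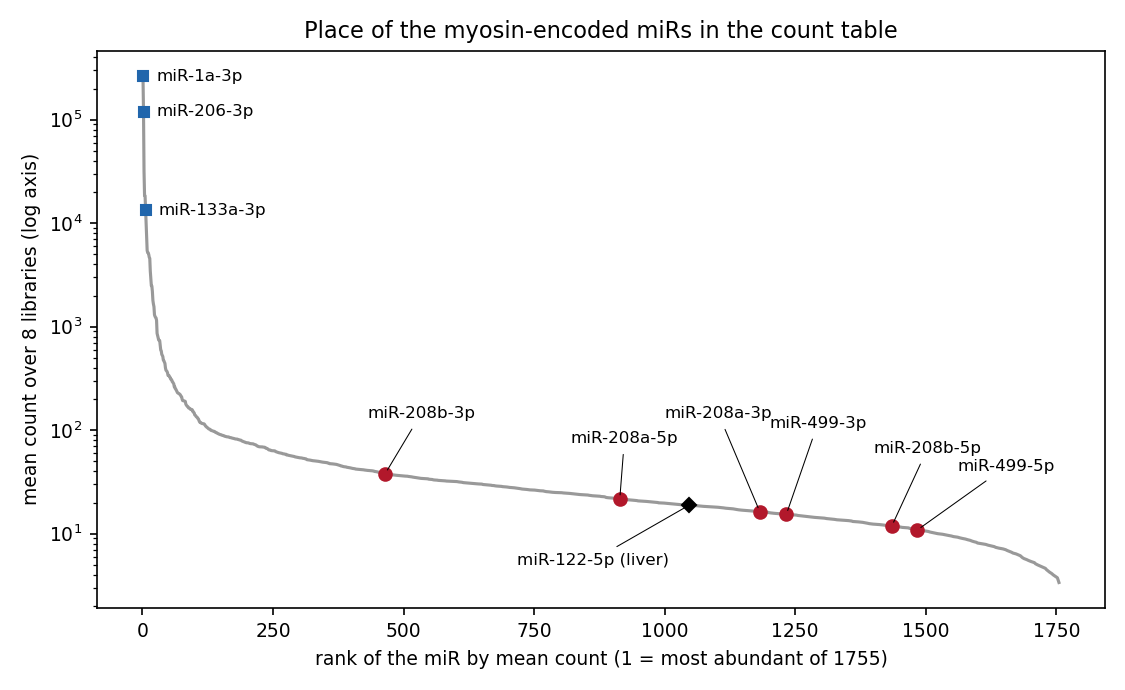
Mean count over the 8 libraries (log axis) of each of the 1755 miRs against its rank, with rank 1 the most abundant. The 6 members (red circles) lie between rank 465 and rank 1484 on the flat part of the curve, beside the liver miR miR-122-5p (black diamond, rank 1047), far below miR-1a-3p, miR-206-3p and miR-133a-3p (blue squares).

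Whether EVs from oxidative muscle carry more of these miRs than those from glycolytic muscle was asked member by member. A miR was tested with edgeR's quasi-likelihood test, mapped reads as library size, if 4 or more libraries held 10 or more of its counts, and 1569 did, all 6 members among them. Of the 1569 tested miRs, 29 (1.85%) passed an adjusted p of 0.05, 1 of them higher in OXI-EV (0.0637%), and 0 of the 6 members did. At an unadjusted p under 0.05, 1 of the 6 members (miR-208b-3p, higher in OXI-EV) stood beside 14.5% of the tested miRs in either direction and 9.05% with a higher level in OXI-EV. The filter was met with few libraries to spare by miR-208b-5p (10 counts reached in 4 libraries) and miR-499-5p (5 libraries, all 4 of OXI-EV and 1 of GLY-EV), so the latter passed through the group in which it was higher.

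The arms with UAAGAC at bases 2 to 7, miR-208b-3p, miR-208a-3p and miR-499-5p, are given first. miR-208b-3p, from the hairpin inside the slow myosin gene Myh7, had 21, 36, 47 and 109 counts in OXI-EV 1 to 4 and 19, 21, 14 and 38 in GLY-EV 1 to 4. Per mapped reads these were 4.83, 8.67, 10.1 and 22.4 CPM in OXI-EV compared with 2.75, 2.92, 2.45 and 7.34 CPM in GLY-EV. All OXI-EV libraries were above GLY-EV 1 to 3, as for 19.1% of all tested miRs. OXI-EV 4 was the highest of the 8, and the groups overlapped because GLY-EV 4 was above OXI-EV 1. The means were 11.5 ± 7.60 CPM (SD, n = 4) and 3.86 ± 2.32 CPM (SD, n = 4), a ratio of 2.97. The log2 fold change was 1.58 (SE 0.60, 95% interval 0.28 to 2.87), with an unadjusted p of 0.0212 and an adjusted p of 0.263 in edgeR. Without OXI-EV 4 the ratio of means was 2.03 and edgeR's log2 fold change 1.03 (adjusted p = 0.547), and without GLY-EV 4 they were 4.25 and 2.08 (adjusted p = 0.135). With the total miR count as library size the log2 fold change was 2.07, with an adjusted p of 0.0320 in edgeR, a scale on which 15.0% of all tested miRs passed and 12.0% were called higher in OXI-EV.

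miR-499-5p, the arm of the Myh7b hairpin that is the guide strand in mouse heart and slow muscle, had 12, 24, 19 and 13 counts in OXI-EV 1 to 4 and 0, 6, 0 and 13 in GLY-EV 1 to 4. The levels were 2.76, 5.78, 4.07 and 2.67 CPM in OXI-EV against 0, 0.834, 0 and 2.51 CPM in GLY-EV. It was the only member whose groups did not overlap in CPM, the lowest OXI-EV library at 2.67 CPM lying just above GLY-EV 4 at 2.51 CPM, while in counts OXI-EV 1 was below GLY-EV 4. Of all tested miRs 8.22% did not overlap in CPM, 3.7% with OXI-EV higher. A count of 0 allowed up to 3 counts, which is 0.433 CPM in GLY-EV 1 and 0.526 CPM in GLY-EV 3, both below every OXI-EV level. The means were 3.82 ± 1.46 CPM (SD, n = 4) and 0.836 ± 1.18 CPM (SD, n = 4), a ratio of 4.57. Its log2 fold change of 2.20 (SE 1.06, 95% interval −0.10 to 4.50) had an unadjusted p of 0.0597 and an adjusted p of 0.354 in edgeR. GLY-EV 4 held most of the GLY-EV counts. Without it the ratio of means was 13.7, resting on GLY-EV counts of 0, 6 and 0, and edgeR's log2 fold change was 3.61 (adjusted p = 0.147). Other omissions gave less, in edgeR 1.77 without GLY-EV 1 (adjusted p = 0.508) and 1.92 without OXI-EV 2 (adjusted p = 0.607).

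miR-208a-3p, the cardiac member that differs from miR-208b-3p outside the seed, had 10, 16, 28 and 17 counts in OXI-EV 1 to 4 and 18, 7, 16 and 19 in GLY-EV 1 to 4. The levels of 2.30, 3.85, 5.99 and 3.49 CPM in OXI-EV overlapped those of 2.60, 0.973, 2.80 and 3.67 CPM in GLY-EV. Only OXI-EV 2 and OXI-EV 3 were above every GLY-EV library. The means were 3.91 ± 1.54 CPM and 2.51 ± 1.13 CPM (SD, n = 4 each), and the log2 fold change was 0.64 (SE 0.56, 95% interval −0.56 to 1.85), with an adjusted p of 0.592 in edgeR.

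Summed over bases 2 to 7 rather than the whole seed, the 3 arms with UAAGAC had 9.89, 18.3, 20.1 and 28.6 CPM in OXI-EV 1 to 4 and 5.35, 4.72, 5.26 and 13.5 CPM in GLY-EV 1 to 4. Only GLY-EV 4 reached above an OXI-EV library, OXI-EV 1. The means were 19.2 ± 7.66 and 7.21 ± 4.21 CPM (SD, n = 4 each). The 3 partner arms had 11.3 ± 3.26 CPM in OXI-EV against 7.85 ± 4.55 CPM in GLY-EV, and GLY-EV 4, at 14.3 CPM, was above all OXI-EV libraries but OXI-EV 2, at 15.7 CPM. miR-208b-3p held most of the OXI-EV counts of these arms, 213 of 352, so the sum is largely that member.

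**Figure D2:**
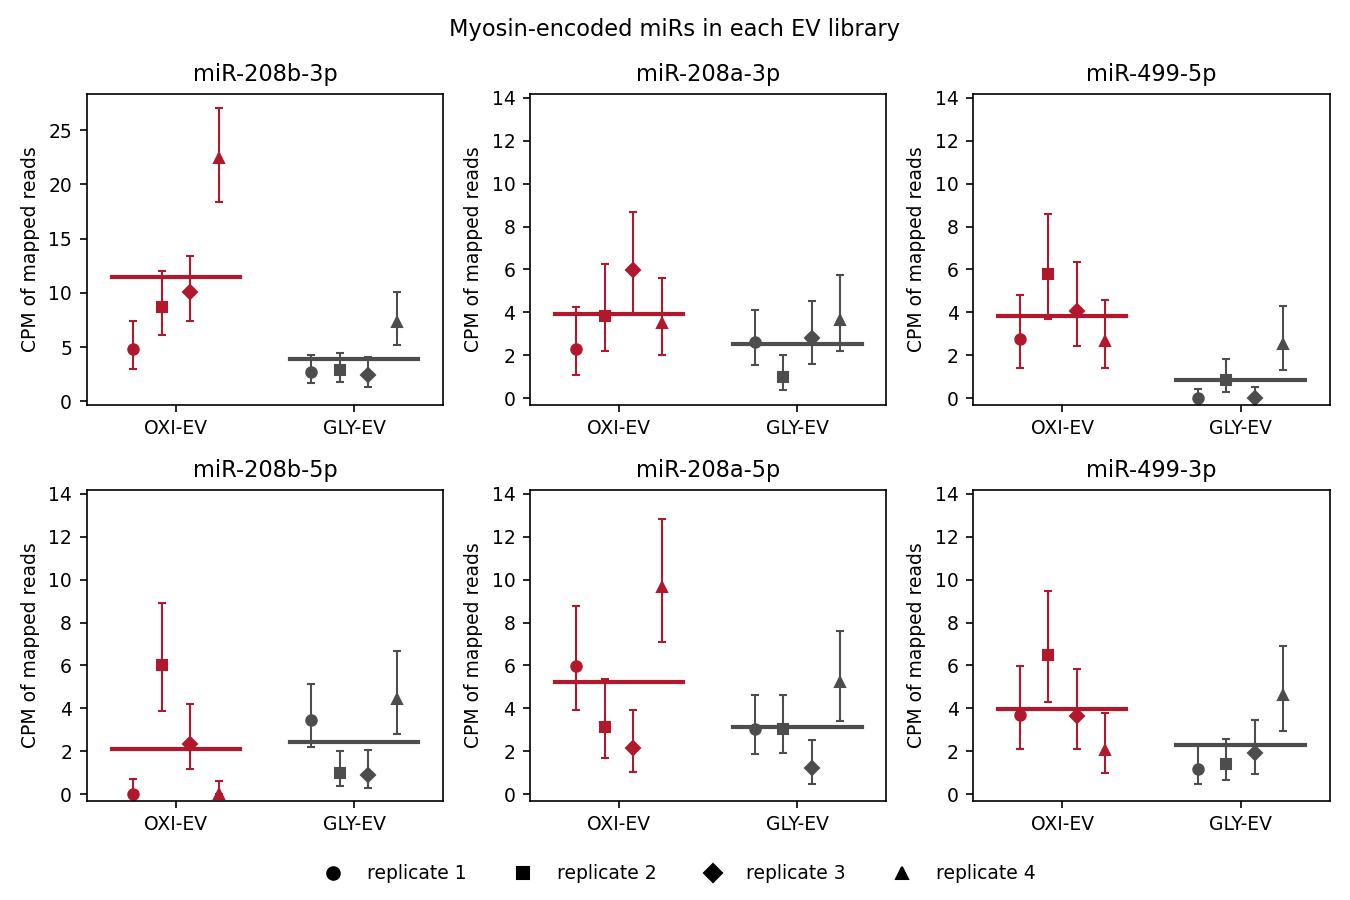
Level of each member in CPM of mapped reads in every OXI-EV (red) and GLY-EV (grey) library, with the symbol giving the replicate number, the vertical bar the exact 95% Poisson interval of the count (counting error only; up to 3 counts where the count was 0) and the horizontal line the group mean. The upper row holds the arms that share UAAGAC and the lower row their partner arms; miR-208b-3p reaches 22.4 CPM in OXI-EV 4 on an axis of its own, miR-499-5p is at 0 in GLY-EV 1 and GLY-EV 3, and GLY-EV 4 is the highest GLY-EV library in all 6 panels.

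The partner arms are usually the less stable strand of a hairpin. miR-208a-5p had 26, 13, 10 and 47 counts in OXI-EV 1 to 4 and 21, 22, 7 and 27 in GLY-EV 1 to 4, and its levels, with means of 5.23 ± 3.37 and 3.13 ± 1.63 CPM (SD, n = 4 each), overlapped widely. OXI-EV 4 alone gave 9.66 CPM, and without it the ratio of means went from 1.67 to 1.20. miR-499-3p had 16, 27, 17 and 10 counts in OXI-EV against 8, 10, 11 and 24 in GLY-EV, with means of 3.97 ± 1.85 and 2.28 ± 1.60 CPM (SD, n = 4 each). Its groups overlapped through GLY-EV 4, at 4.63 CPM, and without that library they did not overlap, as for 19.1% of all tested miRs. miR-208b-5p had 0, 25, 11 and 0 counts in OXI-EV compared with 24, 7, 5 and 23 in GLY-EV, so that OXI-EV 4, the library highest in miR-208b-3p, held no count of its partner arm. A count of 0 allowed up to 0.690 CPM in OXI-EV 1 and 0.616 CPM in OXI-EV 4. In edgeR the log2 fold changes of the 3 partner arms were 0.74 (SE 0.59), 0.81 (SE 0.61) and −0.22 (SE 1.16) for miR-208a-5p, miR-499-3p and miR-208b-5p, with adjusted p-values of 0.558, 0.539 and 0.939. Their 95% intervals were −0.54 to 2.02, −0.51 to 2.12 and −2.73 to 2.28.

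In the order of mean CPM, miR-208b-3p was first and miR-208a-5p next in both groups. In OXI-EV the order went on with miR-499-3p, miR-208a-3p, miR-499-5p and miR-208b-5p, and in GLY-EV with miR-208a-3p, miR-208b-5p, miR-499-3p and miR-499-5p. The ranges of all neighbours in either order overlapped. miR-208b-3p was above miR-208a-5p in 3 of 4 OXI-EV libraries and 2 of 4 GLY-EV libraries, and miR-499-5p was below miR-499-3p in all 4 GLY-EV libraries.

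The members' changes were read against all tested miRs and against those with a mean count under 100. The members had a median log2 fold change of 0.77, and 5 of 6 were above 0, against a median of 0.48 and 1230 of 1569 (78.4%) for all miRs tested. Among the 1440 tested miRs with a mean count under 100, which holds every member, the median was 0.52, 82.7% were above 0, the 5th and 95th percentiles were −0.66 and 1.96, and 0 passed the adjusted p of edgeR while 150 (10.4%) had an unadjusted p under 0.05. miR-499-5p alone was above that 95th percentile. Its SE of 1.06 was above the median SE of 0.60 of these 1440 miRs, so they are not its like in precision. It had also passed the filter through the group in which it was higher, so its place is not a result. In the order of all 1569 log2 fold changes miR-499-5p was at place 62, miR-208b-3p at 142, miR-499-3p at 494, miR-208a-5p at 552, miR-208a-3p at 619 and miR-208b-5p at 1325.

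**Figure D3:**
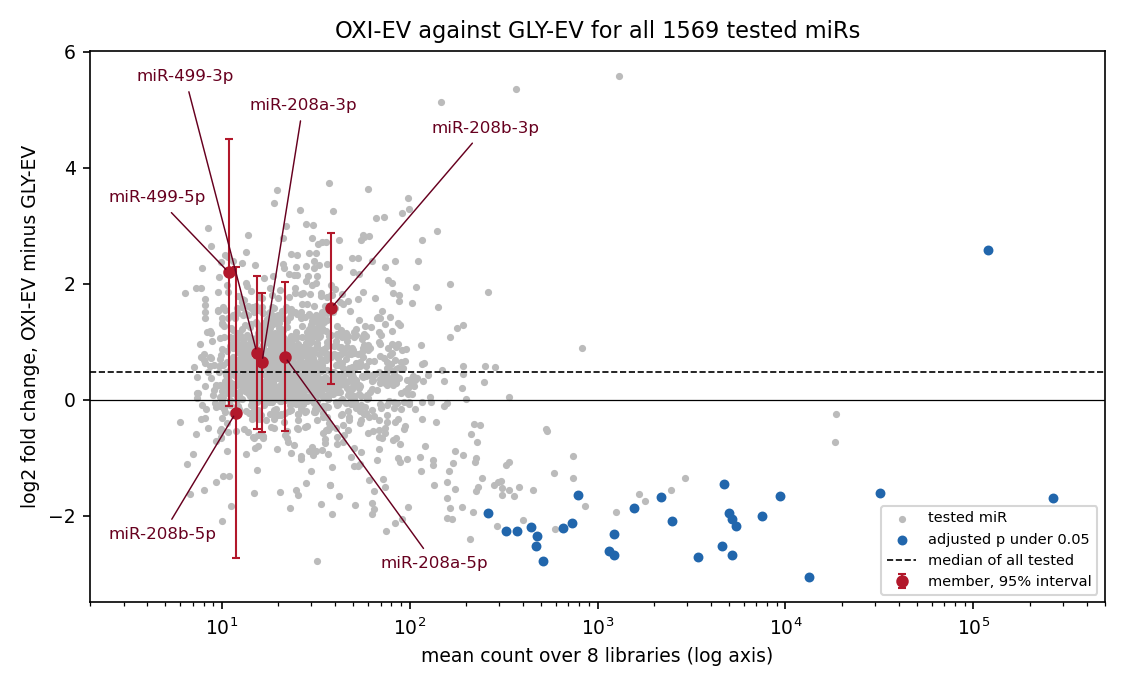
Log2 fold change, OXI-EV minus GLY-EV, from edgeR on the mapped-read scale against the mean count (log axis) for all 1569 tested miRs (grey), those with an adjusted p under 0.05 (blue) and the 6 members (red, with 95% intervals). The dashed line is the median of all tested, 0.48. The members lie in the cloud of miRs with a mean count under 100, where no miR passed, and 5 of the 6 intervals include 0, the exception being that of miR-208b-3p from 0.28 to 2.87.

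The choice of library size moved the members with the rest of the table. The median log2 fold change of all tested miRs was 0.48 with mapped reads as library size, 0.09 with TMM, which takes most miRs as equal, and 0.98 with the total miR count. Relative to that median, miR-208b-3p was at 1.09 with mapped reads, 1.04 with TMM and 1.09 with the total miR count. On the same scales miR-499-5p, which passed the filter through the group in which it was higher, was at 1.72, 1.81 and 1.93. A new library size shifts all miRs nearly alike, so like distances to the median on the 3 scales were nearly fixed beforehand and are no check. The distances of miR-208a-3p, miR-208a-5p and miR-499-3p were 0.16, 0.26 and 0.33 with mapped reads. miR-208b-5p was at −0.70 with mapped reads and was the only member below the median on all 3 scales, while its own log2 fold change was −0.22, −0.62 and 0.39. With TMM, 0 of the 6 members passed in edgeR, as against 5.48% of all tested miRs, 0.0637% with OXI-EV higher. As a share of miR counts, 4 members (miR-208a-3p, miR-208a-5p, miR-208b-3p and miR-499-5p) did not overlap between the groups and were higher in OXI-EV, as were 26.1% of all tested miRs, while in counts as deposited none of the 6 did, against 0.637%.

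**Figure D4:**
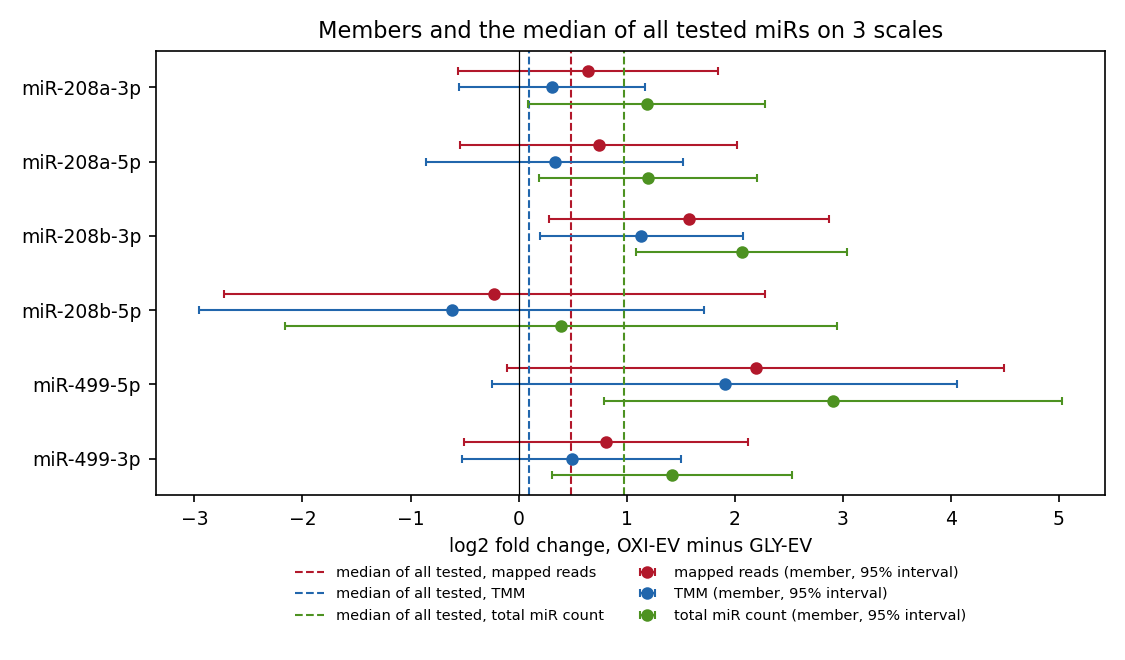
Log2 fold change of each member, OXI-EV minus GLY-EV, with its 95% interval from edgeR, on 3 library sizes (red, mapped reads; blue, TMM; green, total miR count), with dashed lines at the median of all tested miRs on each (0.48, 0.09 and 0.98). Members and medians shift together, since a new library size moves all miRs nearly alike. miR-208b-3p and miR-499-5p lie right of the median on each scale, and miR-208b-5p lies left of it with the widest intervals.

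Arm composition needs no library size. The 5p share of the miR-208a counts was 72.2%, 44.8%, 26.3% and 73.4% in OXI-EV 1 to 4 and 53.8%, 75.9%, 30.4% and 58.7% in GLY-EV 1 to 4, and the groups shared most of their range. For miR-208b it was 0%, 41.0%, 19.0% and 0% in OXI-EV against 55.8%, 25%, 26.3% and 37.7% in GLY-EV, a difference in means of −21.2 points (OXI-EV minus GLY-EV) with overlap through OXI-EV 2. For miR-499 it was 42.9%, 47.1%, 52.8% and 56.5% in OXI-EV against 0%, 37.5%, 0% and 35.1% in GLY-EV, with no overlap. These shares rest on few counts, 28, 51, 36 and 23 for both arms in OXI-EV and 8, 16, 11 and 37 in GLY-EV. The mean 5p share of miR-499 was 49.8 ± 6.05% in OXI-EV against 18.2 ± 21.0% in GLY-EV (SD, n = 4 each), with an exact two-sided permutation p of 0.0286, the smallest that 4 against 4 libraries allows. It was adjusted to 0.297 over the 592 arm pairs with at least 5 summed counts in every library. Of these pairs 57 (9.63%) did not overlap, 24 (4.05%) with OXI-EV higher, and 0 passed the adjusted p of the permutation test, which 4 against 4 libraries allow only if at least 339 of the 592 pairs do not overlap. The exact permutation p was 1 for miR-208a and 0.143 for miR-208b (adjusted p = 1 and 0.579).

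Summed over the libraries of a group, the 5p arm made up 57.5% (95% Clopper-Pearson interval 49.6 to 65.1%) of 167 miR-208a counts in OXI-EV compared with 56.2% (47.5 to 64.7%) of 137 in GLY-EV. It made up 14.5% (10.3 to 19.5%) of 249 miR-208b counts in OXI-EV against 39.1% (31.2 to 47.3%) of 151 in GLY-EV. For miR-499 it was 49.3% (40.7 to 57.9%) of 138 counts in OXI-EV against 26.4% (16.7 to 38.1%) of 72 in GLY-EV. These intervals cover counting error only. Single OXI-EV libraries lay outside them, from 26.3% to 73.4% for miR-208a and from 0% to 41.0% for miR-208b.

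The balance between the arms of a hairpin was also set against the other hairpins. Over all libraries the larger arm held 56.9% of the counts of miR-208a (5p), 76.3% of miR-208b (3p) and 58.6% of miR-499 (3p, the partner of the arm with UAAGAC). It held 99.4% of miR-133a, 97.8% of miR-378a, a miR within the metabolic regulator Ppargc1b, and 81.4% of miR-486a, a miR within the ankyrin gene Ank1. Among the 462 pairs with a mean summed count under 100 the median share of the larger arm was 64.6% (quartiles 57.4% and 74.6%), and among the 17 with at least 1000 it was 98.8%. Against the scarce pairs, miR-208a, with a mean summed count of 38, lay just below the lower quartile, miR-499 (26.25) lay between the quartiles and miR-208b (50) lay just above the upper one.

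**Figure D5:**
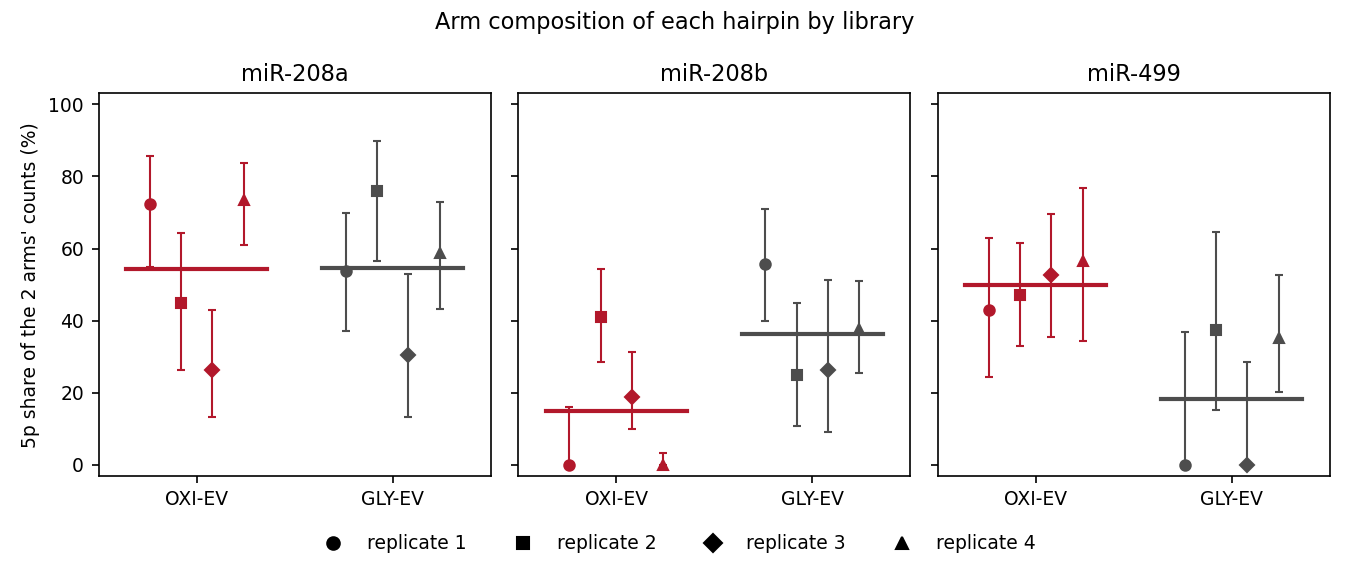
Share of the 5p arm among the counts of both arms (%) for miR-208a, miR-208b and miR-499 in every OXI-EV (red) and GLY-EV (grey) library, with symbols for the replicate number, 95% Clopper-Pearson intervals (counting error only) and lines at the group means. The miR-499 shares are 42.9% to 56.5% in OXI-EV against 0% to 37.5% in GLY-EV, whereas those of miR-208a and miR-208b overlap between the groups.

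The other miRs of muscle give the background to these values. Of 11 other myomiRs, muscle miRs outside myosin genes, 10 were tested, of which miR-206-3p was higher in OXI-EV and another 7 were lower at an adjusted p under 0.05 in edgeR, with mapped reads and with TMM alike. The 8 that passed had mean counts far above those of the members, and the median log2 fold change of the list was −1.78. The myomiR nearest the members in abundance was miR-206-5p, the partner arm of miR-206-3p, with a mean count of 20.1 and 22 to 35 counts in OXI-EV against 11 to 18 in GLY-EV. Its log2 fold change was 1.24 (SE 0.47), with an unadjusted p of 0.0206 and an adjusted p of 0.263 in edgeR, next to 1.58 for miR-208b-3p. Of 12 arms of miRs within introns of other genes used in muscle, 0 were higher and 4 lower at an adjusted p under 0.05 in edgeR (6 lower with TMM). With 12 arms at mean counts of 25.1 to 9316, this list too was mostly more abundant than the members.

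Markers of other cells were read beside the members. Both arms of endothelial miR-126a summed to 53.1 to 198 CPM in OXI-EV against 201 to 772 CPM in GLY-EV, with every OXI-EV library below every GLY-EV library, and 0 of the 2 arms passed an adjusted p of 0.05 in edgeR with mapped reads but both, lower in OXI-EV, with TMM. Smooth muscle miR-143-3p and miR-145a-5p, of which 1 was lower in OXI-EV at that threshold (2 with TMM), summed to 265 to 503 CPM in OXI-EV against 782 to 2031 CPM in GLY-EV. Summed erythroid, leukocyte and neuronal markers had ranges that overlapped between the groups, with 0 called with mapped reads and 1 leukocyte and 1 neuronal marker called lower in OXI-EV with TMM. No marker of these lists was at 0 in all libraries. Their part in the members' levels was not tested.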

How the data were processed

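Small RNA of 8 EV preparations was sequenced by the authors. The counts, as deposited, are whole numbers for each miR and library. They appear to be molecules marked by unique identifiers, judged by the reads per count. The submitters' processing notes name cutadapt, STAR and GRCm38 (versions not given in the sources used here). The 72 piRNA rows and the 4 columns of the authors' own comparison (fold change, log2 fold change, p-value and FDR) were not used. Mapped reads are the sum of the mapped classes in the deposited table of read numbers. Dividing counts by reads raises a library with few reads per count.

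Log2 fold changes, OXI-EV minus GLY-EV, are from the quasi-likelihood test of edgeR 4.0.16 (with limma 3.58.1 in R 4.3.3) over the 1569 miRs that passed the filter, with Benjamini-Hochberg adjustment at 0.05. The standard error of a log2 fold change was derived from its test statistic. For shares of arms, exact permutation tests (two-sided) were run. Precision was limited by the members' counts of 0 to 109 per library. A count of 0 was read as allowing up to 3 counts, and exact Poisson and Clopper-Pearson intervals (95%) cover counting error only. The fits were tested on simulated data with known changes. Python 3.11.15, pandas 2.3.3, numpy 2.4.6 and scipy 1.17.1 were used. Hairpins were placed with GENCODE mouse release 21, and 1521 of the 1755 names matched a RefSeq mature sequence.

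The members named are all arms of miR-208a, miR-208b and miR-499. Other miRs are named from fixed lists (myomiRs, miRs within introns of other muscle genes, and markers of erythroid, leukocyte, endothelial, smooth muscle, nerve, liver and skeletal muscle cells), or as the 3 tested miRs with the highest correlation to each member. The members and lists were chosen with earlier results of these data known. Alternatives were other scales (TMM, total miR count, DESeq2 size factors), DESeq2 1.42.0, edgeR's likelihood ratio test, other filters, blocks by number and leaving out each library. Means without GLY-EV 4 and OXI-EV 4 were added after seeing the data.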

Additional observations from a re-analysis of the deposited data

Results flagged for a closer look

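miR-208b-3p in GLY-EV 4 stood far from the other GLY-EV libraries, at 7.34 CPM beside 2.45 to 2.92 CPM. Its gap to the nearest was 0.905 of the range of the group, above Dixon's critical value for 4 samples, a test that chance passes in about 1 of 20 groups. GLY-EV 4 was the highest GLY-EV library in CPM for 6 of 6 members and for 73.2% of all tested miRs, and as a share of miR counts for 3 of 6 members and 33.1% of all tested miRs.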

How the results depend on the processing

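Of the 1569 tested miRs, 29 differed at an adjusted p under 0.05 in edgeR. This count was 86 with TMM, 236 with the total miR count, 86 with DESeq2 size factors, 54 with the likelihood ratio test, and in DESeq2 86 with mapped reads and 128 with its own size factors. It was 58 with 10 counts required in every library and ranged from 10 (without OXI-EV 3) to 29 (without OXI-EV 4) with 1 library left out, among them 11 without OXI-EV 2, 15 without GLY-EV 2, 16 without OXI-EV 1 and 18 without GLY-EV 1. With a block by replicate number it was 42, and with a block by the number in the submitters' library names 32. No member passed in either, although miR-208b-5p moved from −0.22 to −1.13 and −2.68, and miR-499-5p from 2.20 to 3.21 and 3.13. The labels do not say what the number in the library names marks. OXI-EV 2 and GLY-EV 2 had no library of the other group with that number, so neither took part in the comparison with that block. The replicate numbers join OXI-EV 2 to GLY-EV 2, although the library names number them differently. By replicate numbers 1 to 4, the correlations of same-numbered libraries were 0.161, −0.155, −0.127 and 0.0515. Such values cannot show whether libraries share a mouse. The sources used here do not tie the numbers to mice, so the numbers were not taken as pairs. Of all members and alternatives, 1 call was made, miR-208b-3p with the total miR count (log2 fold change 2.07). Its log2 fold change was 1.03 to 2.08 with 1 library left out, and its adjusted p over the alternatives was 0.0320 to 0.547. That of miR-499-5p was 0.0558 to 0.607, and DESeq2 gave it none. miR-208b-5p turned positive with the total miR count (0.39), and it ranged from −1.60 to 0.22 with 1 library left out. It was above 0 without OXI-EV 1 (0.19), OXI-EV 4 (0.20), GLY-EV 1 (0.0012) or GLY-EV 4 (0.22), and the cause was not tested. The other 5 members kept their sign. The difference in the 5p share of miR-208a ranged from −8.60 to 8.79 points with 1 library left out, positive without OXI-EV 2 (2.62), OXI-EV 3 (8.79), GLY-EV 2 (6.54) or GLY-EV 4 (0.820). miR-499 missed the minimum of 10 summed counts and has no value there. That 0 arm pairs passed at each minimum was nearly fixed by 4 against 4 libraries and says nothing about stability.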

Other observations

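Likeness between members was described by Pearson's r of log2 CPM (prior count 2) over the 8 libraries, whose depth and groups all miRs share. The arms of miR-499 had an r of 0.81, whereas those of miR-208a had −0.018 and those of miR-208b −0.16. Across hairpins, miR-208b-3p and miR-499-5p had an r of 0.76, and miR-208a-5p and miR-208b-3p, with unlike seeds, had 0.63. Of the pairs that share a seed, miR-208a-3p and miR-208b-3p had 0.61 and miR-208a-5p and miR-208b-5p −0.44. Outside the group, the 3 of 1563 tested miRs closest to miR-208b-3p were miR-876-3p (0.987), miR-1927 (0.975) and miR-3098-3p (0.957), and those closest to miR-499-5p were miR-6942-3p (0.979), miR-871-3p (0.979) and miR-7232-3p (0.978). Those closest to miR-208a-3p were miR-7025-3p (0.980), miR-7663-5p (0.976) and miR-6969-3p (0.969). For miR-208a-5p they were miR-7085-3p (0.935), miR-5107-5p (0.906) and miR-382-3p (0.896). For miR-208b-5p they were miR-7022-5p (0.986), miR-6897-5p (0.971) and miR-6956-3p (0.970), and for miR-499-3p miR-1199-3p (0.944), miR-467e-5p (0.940) and miR-6952-5p (0.914). High r values arise from taking the closest 3 of 1563 miRs over 8 libraries. None of these 18 miRs is a muscle miR of the lists used here. Those lists hold few of the 1563, so this was nearly fixed beforehand. The 18 miRs had mean counts of 8.13 to 33.6 per library.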
